A study of Mus musculus with 8 samples.

Results

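The genes examined here encode the NADPH oxidases, the dual oxidases and the proteins that assemble them, together with the inducible nitric oxide synthase. They are 10 of the 54532 genes in the count table: Cyba, Cybb, Nox1, Nox4, Noxo1, Noxa1, Duox2, Duoxa2, Rac1 and Nos2. The set was chosen by symbol because Cyba was already known to be strongly higher with RANKL in these libraries, so the difference between the conditions is given for the members as a description, without p-values. Expression was measured by 3′ mRNA sequencing of mouse intestinal organoids, in 4 control libraries and 4 libraries of RANKL-treated organoids, with no genotype, age or donor given in the labels. Organoids are epithelial structures grown from crypts without stroma, and RANKL is a cytokine of the TNF family that binds the receptor RANK. According to the methods the organoid medium contained EGF, NOGGIN, R-spondin1 and the antioxidant N-acetylcysteine in both conditions, and neither the amount of RANKL nor the time of exposure for these libraries was given in the sources used here. It is not stated whether the libraries came from separate cultures or animals, so p-values measure only the spread between these libraries, which may be technical.

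NADPH oxidases are membrane enzymes that pass electrons from cytosolic NADPH across the membrane to oxygen and so make superoxide or hydrogen peroxide. The catalytic subunits NOX1, NOX2 (encoded by Cybb) and NOX4 are stabilised by the small membrane protein p22phox, the product of Cyba. NOX1 is the form of the intestinal epithelium and works with the organizer NOXO1, the activator NOXA1 and the GTPase RAC1, whereas NOX2 is the form of phagocytes. DUOX2 makes hydrogen peroxide at the apical surface of intestinal cells without p22phox, and needs the maturation factor DUOXA2 to leave the endoplasmic reticulum. Nos2 encodes the inducible synthase of nitric oxide, which uses NADPH as well.

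Promoter sequence was at hand for 8 of the 10 genes, all but Rac1 and Nos2 (RefSeq, GRCm38.p6), and 4 windows of 250 bases before the start are shown. Cyba and Noxo1 were higher with RANKL, Noxa1 was lower, and the window of Duoxa2 lies in the 450 bases between Duoxa2 and Duox2, which are transcribed away from each other. Each window is written 5′ to 3′ on the strand of its gene, and capitals mark a match to a searched motif.
Cyba (chr8:122432941-122433190, minus strand): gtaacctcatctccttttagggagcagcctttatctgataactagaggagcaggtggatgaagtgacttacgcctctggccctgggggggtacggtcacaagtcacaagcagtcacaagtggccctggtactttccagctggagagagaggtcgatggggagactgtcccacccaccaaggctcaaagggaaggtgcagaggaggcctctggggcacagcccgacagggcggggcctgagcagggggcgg
Noxo1 (chr17:24695984-24696233, plus strand): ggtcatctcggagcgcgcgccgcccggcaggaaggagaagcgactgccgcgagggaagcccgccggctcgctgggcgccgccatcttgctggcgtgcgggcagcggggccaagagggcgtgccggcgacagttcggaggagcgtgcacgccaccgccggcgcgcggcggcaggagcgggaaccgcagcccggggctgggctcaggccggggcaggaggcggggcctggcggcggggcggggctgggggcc
Noxa1 (chr2:25095206-25095455, minus strand): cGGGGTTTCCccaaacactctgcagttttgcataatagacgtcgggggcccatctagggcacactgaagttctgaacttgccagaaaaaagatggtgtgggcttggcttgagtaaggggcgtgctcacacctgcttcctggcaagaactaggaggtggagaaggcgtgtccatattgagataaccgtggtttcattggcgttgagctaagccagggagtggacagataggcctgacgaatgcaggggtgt
Duoxa2 (chr2:122298650-122298899, plus strand): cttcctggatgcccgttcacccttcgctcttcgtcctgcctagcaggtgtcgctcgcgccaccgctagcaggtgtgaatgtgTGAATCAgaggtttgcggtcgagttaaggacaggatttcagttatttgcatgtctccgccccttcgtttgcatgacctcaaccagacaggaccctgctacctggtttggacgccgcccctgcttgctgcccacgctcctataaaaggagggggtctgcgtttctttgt
The motifs were searched on both strands of windows of 300 bases, 250 before and 50 after the start. They were 2 forms of the NF-κB site, GGGNNTTCC and GGANTTTCC, which cannot match at the same place on the same strand. The others were TGANTCA, a loose spelling of the AP-1 site TGA(C/G)TCA, and the STAT site TTCNNNGAA. In all of them N is any base. GGGNNTTCC was present in 5.72% of 27025 mouse promoters and in the windows of Noxa1 and Nox1, and GGANTTTCC in 1.23% and in 0 of the 8 windows. TGANTCA was present in 7.93% of all promoters and in the windows of Duoxa2 and Cybb, and TTCNNNGAA in 8.47% and in the window of Nox4. In Duoxa2 and Cybb the match reads TGAATCA, without the C or G at the centre of the AP-1 site. None of the 4 spellings was found in the windows of Cyba, Noxo1 or Duox2, which says only that these letters are not there.

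Of the 10 genes, 6 had enough counts for the fit across all genes, and 4 (Cybb, Nox4, Duoxa2 and Nos2) did not. In the fit of edgeR's quasi-likelihood test over all genes, 5 of the 6 were past an adjusted p of 0.05, where 25.9% of the 9971 genes tested were. Cyba, Nox1 and Noxo1 were higher with RANKL, against 13.6% of all genes tested, and Noxa1 and Duox2 were lower, against 12.4%. In the same 5 genes the 4 control and the 4 RANKL libraries did not overlap, as in 24.6% of all genes tested. Since the genes were selected on this contrast, nothing is read from these counts. The filter asked for 5.39 CPM in at least 4 libraries, and Noxa1 met it only through the controls, with 0 of 4 RANKL libraries at that level. The total counts ran from 583663 in control replicate 4 to 7807298 in control replicate 1, and RANKL replicate 1, with 613135, was the other shallow library. Levels are given as CPM, the counts per 1000000 counts of the library total after TMM scaling, with mean ± SD (n = 4 in each condition). Because each transcript is read at its 3′ end, CPM does not scale with gene length. Other differences between genes in how fully their transcripts are counted were not tested, so orders and ratios between genes are those of reads. Within bulk organoids, fewer cells of a type and less RNA per cell cannot be told apart.

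**Figure D1:**
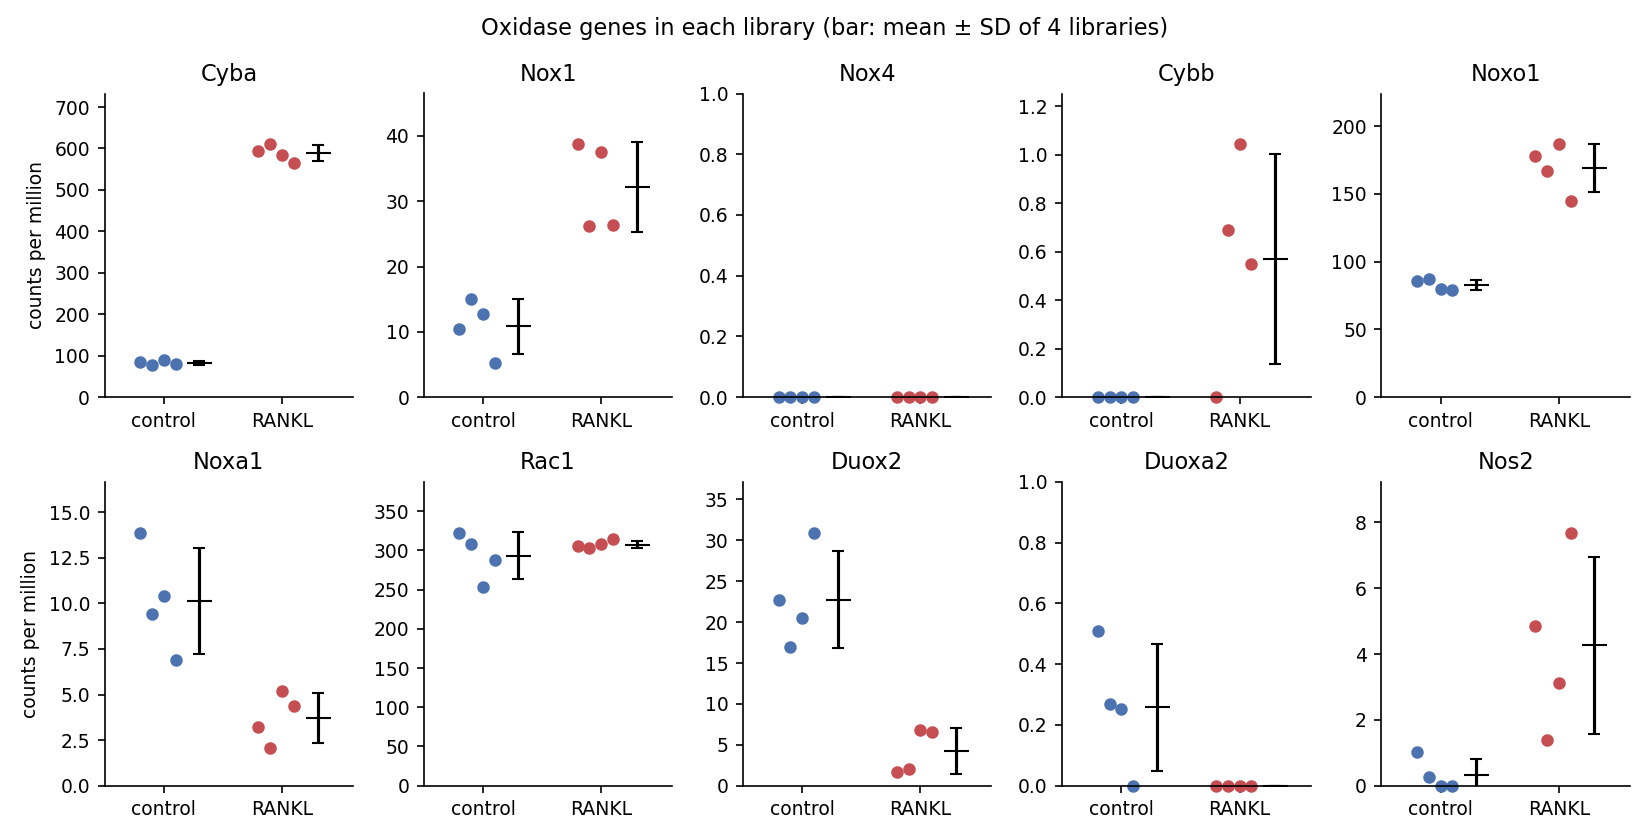
CPM of each of the 10 genes, on a separate linear axis for each gene, with a point for each of the 4 control (blue) and 4 RANKL (red) libraries and the mean ± SD beside them. The RANKL libraries lie above all controls for Cyba, Nox1, Noxo1 and Nos2, below all of them for Noxa1 and Duox2, and among them for Rac1, while Nox4 is at 0 throughout.

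Cyba (ENSMUSG00000006519, GRCm38 chromosome 8, 122424776 to 122432930, minus strand) encodes p22phox, the membrane partner that NOX1, NOX2 and NOX4 share. It was at 83.8, 77.6, 89.2 and 80.8 CPM in the controls and at 594, 611, 585 and 564 CPM in the RANKL libraries, in the order of replicates 1 to 4, as in all such lists that follow. All 4 RANKL libraries were thus far above all 4 controls, and the libraries of a condition lay close together. The mean went from 82.8 ± 4.95 to 588 ± 19.4 CPM (SD, n = 4 each), a 7.06-fold difference and a log2 fold change of 2.82 (standard error 0.10). Folds are those of the fit, in which a prior count draws genes with few reads towards no change. The coefficient of variation was 5.97% in the controls and 3.29% in the RANKL libraries, no more than the 8.53% and 3.78% that counting alone gives at these depths. Leaving out any 1 library moved the log2 fold change only between 2.79 and 2.86. The gene next to Cyba, Mvd, lies 670 bases away on the same strand, and no exon of any of the 10 genes overlaps another gene on its strand.

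Among the catalytic partners of p22phox, Nox1 was the one with counts in every library, and it was higher with RANKL. Nox1 (ENSMUSG00000031257, chromosome X, 134086421 to 134221956, minus strand) was at 10.4, 15.0, 12.7 and 5.16 CPM in the controls and at 38.8, 26.2, 37.6 and 26.4 CPM in the RANKL libraries. The groups did not overlap, and control replicate 4, the lowest, rested on 3 counts. The mean was 10.8 ± 4.22 CPM in control and 32.2 ± 6.88 CPM in RANKL organoids, a 2.63-fold difference and a log2 fold change of 1.40 (standard error 0.21, 1.28 to 1.54 with any 1 library left out). Nox4 (ENSMUSG00000030562, chromosome 7, 87246096 to 87398710, plus strand), the form described mainly in kidney and mesenchymal cells, had 0 counts in all 8 libraries. A count of 0 allows up to 3 counts per group, which is 0.185 CPM over the controls and 0.52 CPM over the RANKL libraries. Cybb (ENSMUSG00000015340, chromosome X, 9435252 to 9487771, minus strand) had 0 counts in the controls and 4 in the RANKL libraries (0, 1, 2 and 1). This is 0.694 CPM (95% exact Poisson interval 0.189 to 1.78), and its lower end is next to the 0.185 CPM that the 0 of the controls allows. Intervals and floors cover counting error only, since copies made by PCR are counted as reads. Of the 3 catalytic partners of p22phox, Nox1 thus held nearly all counts in both conditions.

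The gene of the NOX1 organizer was higher with RANKL and that of the activator was lower. Noxo1 (ENSMUSG00000019320, chromosome 17, 24696234 to 24700529, plus strand), whose product tethers the complex to the membrane, was at 85.4, 86.9, 80.1 and 79.1 CPM in the controls and at 178, 167, 187 and 145 CPM in the RANKL libraries. Every RANKL library was above every control. The mean went from 82.9 ± 3.88 to 169 ± 18.0 CPM, a 2.02-fold difference and a log2 fold change of 1.01 (standard error 0.11, 0.95 to 1.09 with any 1 library left out). Noxa1 (ENSMUSG00000036805, chromosome 2, 25085667 to 25095149, minus strand), whose product switches the catalytic subunit on, was at 13.9, 9.39, 10.4 and 6.88 CPM in the controls and at 3.23, 2.07, 5.22 and 4.39 CPM in the RANKL libraries. Here every RANKL library was below every control. The mean went from 10.1 ± 2.90 to 3.73 ± 1.38 CPM, a 2.81-fold lower level and a log2 fold change of -1.49 (standard error 0.33, -1.73 to -1.27 with any 1 library left out). It rests on few reads, 189 in the controls and 23 in the RANKL libraries, and on 4 in control replicate 4. Noxa1 met the filter only through the controls, so that it had to be lower if it was tested at all. The ratio of Noxo1 to Noxa1 shares this limit. Per count of Noxa1 there were 8.66 ± 2.28 counts of Noxo1 in control and 51.2 ± 22.1 in RANKL libraries, with no overlap (6.16 to 11.5 against 33.0 to 81.0).

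Rac1 (ENSMUSG00000001847, chromosome 5, 143503634 to 143528036, minus strand), the GTPase that the NOX1 complex needs and that also acts in the cytoskeleton, differed by less than the spread between libraries. It was at 323, 309, 254 and 287 CPM in the controls and at 305, 303, 308 and 314 CPM in the RANKL libraries. The groups overlapped, with the RANKL libraries inside the range of the controls. The log2 fold change was 0.07 (standard error 0.10, -0.01 to 0.12 with any 1 library left out), and the controls varied by 10.2% where counting alone gives 4.54%. The spread of the controls in Rac1 was thus larger than counting error, unlike that in Cyba.

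Duox2 (ENSMUSG00000068452, chromosome 2, 122279247 to 122298449, minus strand), the dual oxidase of the gut surface, was lower with RANKL and differed the most downward of the 6 genes. It was at 22.7, 16.9, 20.5 and 31.0 CPM in the controls and at 1.61, 2.07, 6.78 and 6.59 CPM in the RANKL libraries. All RANKL libraries were below all controls, and RANKL replicates 1 and 2 were lower than replicates 3 and 4, at 1 and 3 counts against 13 and 12. The mean went from 22.8 ± 5.96 to 4.26 ± 2.81 CPM, a 4.28-fold lower level in the fit and a log2 fold change of -2.10 (standard error 0.30, -2.38 to -1.84 with any 1 library left out). The 65.8% coefficient of variation among RANKL libraries compares with 61.1% from counting alone. Duoxa2 (ENSMUSG00000027225, chromosome 2, 122298900 to 122302885, plus strand), the maturation factor that lies head to head with Duox2, had 4, 1, 1 and 0 counts in the controls and 0 in each of the RANKL libraries. That is 0.37 CPM over the controls (95% exact Poisson interval 0.136 to 0.805), below the 0.52 CPM that a count of 0 allows over the RANKL libraries, so a difference was not detectable at this depth. In the controls, reads of Duox2 were thus present with almost none of Duoxa2.

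Nos2 (ENSMUSG00000020826, chromosome 11, 78920787 to 78960254, plus strand), which makes nitric oxide rather than superoxide, was low in both conditions. It had 8, 1, 0 and 0 counts in the controls and 3, 2, 6 and 14 in the RANKL libraries. Pooled, this is 0.555 CPM against 4.34 CPM, a ratio of 7.82 (95% exact interval from counting 3.53 to 19.0). Single libraries decide its size, as it is 36.5 without control replicate 1, with 1 control count left, and 4.99 without RANKL replicate 4. The lowest RANKL library, at 1.38 CPM, was above the highest control, at 1.02 CPM, but the 0 of control replicate 4 allows up to 5.14 CPM (3 counts of its total).

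The order of the levels was different in the conditions. In the controls Rac1 was highest, at 293 ± 29.9 CPM, followed by Noxo1 and Cyba, whose ranges overlapped, then Duox2, then Nox1 and Noxa1, whose ranges overlapped, and then Nos2 and Duoxa2. In the RANKL libraries Cyba was highest, above Rac1 at 308 ± 4.89 CPM, Noxo1 and Nox1, each with a range apart from the one before it, while Duox2, Nos2 and Noxa1 overlapped between 1.38 and 7.69 CPM. Cyba went from 16.5 ± 1.81% to 53.0 ± 1.34% of the counts of the 10 genes, and Rac1 from 58.2 ± 2.59% to 27.7 ± 1.12%. The share of Noxo1 was 16.5 ± 0.63% and 15.2 ± 1.25%, with overlap, while the sum itself was higher. Together the 10 genes took 499 ± 40.4 CPM of the unscaled library total in control and 1120 ± 21.6 in RANKL libraries.

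**Figure D2:**
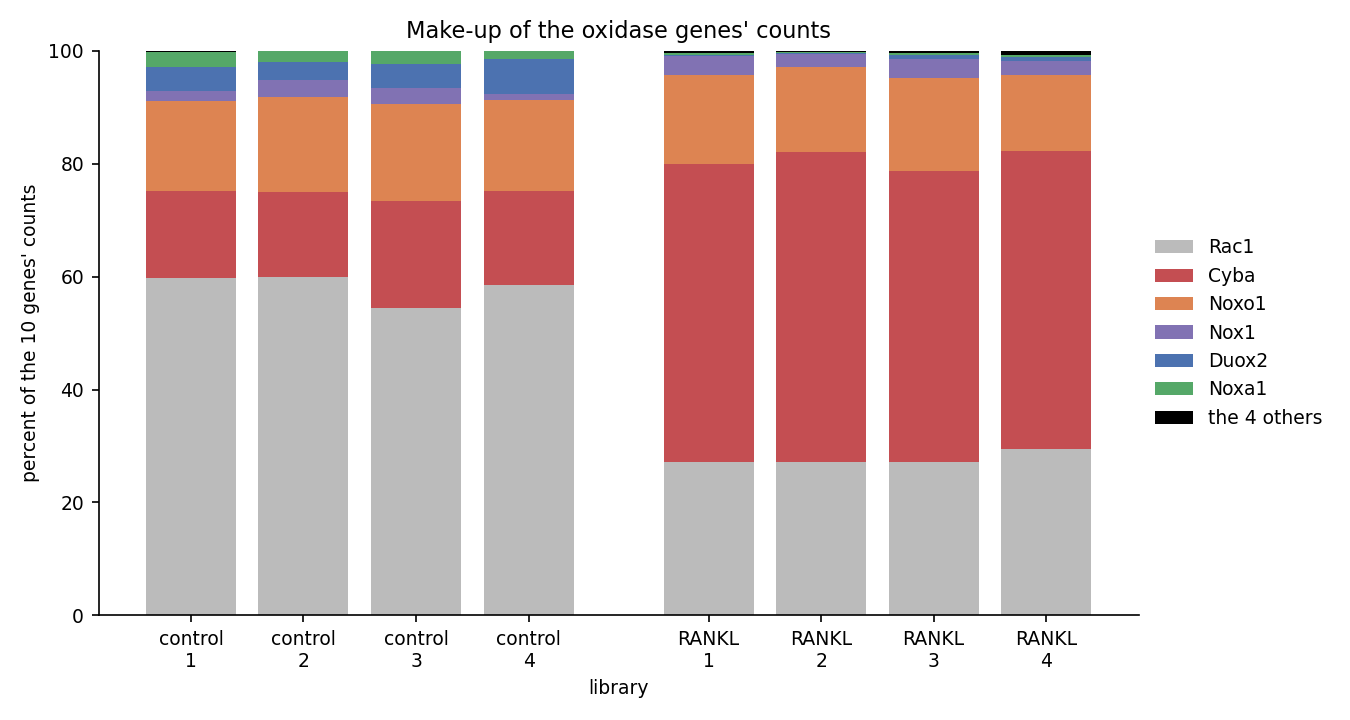
Share of each gene in the summed counts of the 10 genes (percent, bars add up to 100), by library. The share of Cyba is 15.1 to 19.1% in the 4 control and 51.6 to 54.9% in the 4 RANKL libraries, while that of Duox2 is 3.28 to 6.32% and 0.143 to 0.617%.

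Set against the catalytic subunits it partners, there were 8.97 ± 4.62 counts of Cyba for each count of Nox1, Nox4 and Cybb together in control and 18.5 ± 3.88 in RANKL libraries. The groups overlapped in this ratio (5.16 to 15.7 against 15.2 to 22.7), through control replicate 4 alone, whose ratio rests on 3 counts of Nox1. Without it the control mean is 6.74. Nox1 and Duox2, the catalytic genes of the 2 enzyme types, changed places: there were 0.533 ± 0.302 counts of Nox1 for each count of Duox2 in control and 11.6 ± 9.12 in RANKL libraries (0.167 to 0.889 against 4.00 to 24.0). The 24.0 of RANKL replicate 1 rests on 1 count of Duox2, and without that library the RANKL mean is 7.4.

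The further subunits and assembly factors of these enzymes were a list of 13 genes, of which 6 were tested. Past the threshold, 3 were higher and 0 lower, and the median log2 fold change was 0.45, against 0.00017 over all genes tested. Of all genes tested 13.6% were higher and 12.4% lower, the shares to set beside the counts of this and the following lists. Rac2, the RAC form known from blood cells, had 4 counts in the controls (2 libraries at 0) and 59 in the RANKL libraries, with 8.07, 12.4, 8.87 and 10.4 CPM in the latter. The pooled ratio was 41.5 (95% exact interval from counting 15.4 to 157), or 86.1 without control replicate 1, which held 3 of the 4 control counts. Rac2 met the filter only through the RANKL libraries, so that it had to differ if it was tested at all, and its call is given no p-value. It is 1 of the 3 genes counted as higher and enters the median, so nothing is read from either. The scaffold gene Sh3pxd2b rose from 25.5 ± 3.46 to 40.1 ± 3.31 CPM (log2 fold change 0.66, standard error 0.16, edgeR adjusted p = 0.0027). The related Sh3pxd2a rose from 7.14 ± 3.32 to 11.3 ± 2.66 CPM with overlap (log2 fold change 0.93, edgeR adjusted p = 0.016). Its call was lost under DESeq2 (0.90), with the replicate number as a block (0.78) and with RANKL replicate 4 left out (0.74). Cybc1, a chaperone of the p22phox complex, was at 27.1 ± 6.25 and 30.2 ± 3.39 CPM and did not pass the test (log2 fold change 0.25, standard error 0.18, edgeR adjusted p = 0.35). Ncf4 and Ncf1, which encode cytosolic subunits of NOX2, were too low to test. Ncf4 had 0 counts in the controls and 17 in the RANKL libraries, with at least 1 in each, which is at least 15.9-fold higher when 3 counts are allowed in the controls together, or 8.27-fold without control replicate 1, the deepest. Ncf1 had 4 and 7 counts, Duox1 had 1 and 2, and Nox3 and Duoxa1 had 0.

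The regulators of RAC were a list of 14 genes, with 8 tested, 1 higher and 2 lower and a median log2 fold change of -0.19. The exchange factor genes Tiam1 (log2 fold change -0.55, edgeR adjusted p = 0.033) and Vav3 (-0.81, edgeR adjusted p = 0.036) fell and Vav2 rose (0.51, edgeR adjusted p = 0.042). All 3 calls were lost under DESeq2, and between 0 and 4 genes of the list passed when 1 library was left out, with 0 without RANKL replicate 1 or 4. Leaving out control replicate 1, RANKL replicate 1 or RANKL replicate 4 ended each of the 3 calls. Others were also lost, Tiam1 and Vav2 also without control replicate 2, Tiam1 and Vav3 without RANKL replicate 2, and Vav2 and Vav3 without RANKL replicate 3. Over these fits the log2 fold changes were -0.65 to -0.49 for Tiam1, -0.96 to -0.55 for Vav3 and 0.39 to 0.60 for Vav2, whose call was also lost without control replicate 3.

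**Figure D3:**
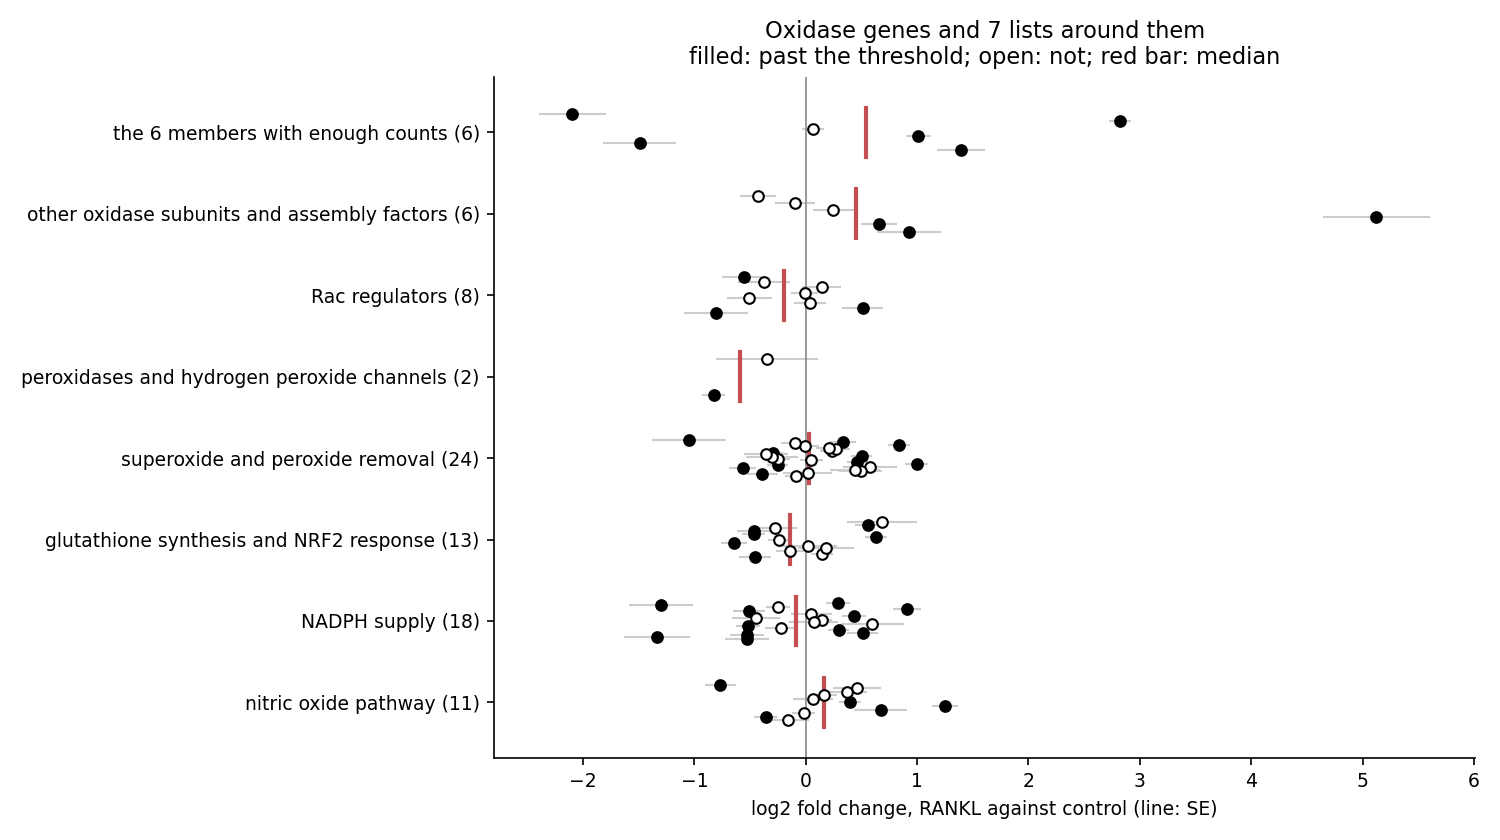
Log2 fold change with standard error, RANKL against control, of the 6 members with enough counts and of the tested genes of 7 lists around them, with filled points past an adjusted p of 0.05 in edgeR's test, open points not past it, and a red bar at the median. The members spread from -2.10 (Duox2) to 2.82 (Cyba), Rac2 lies furthest right at 5.13, and the medians of the other lists lie between -0.59 and 0.45.

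Genes that handle the products of the oxidases moved in both directions, as did the genes tested as a whole (13.6% higher and 12.4% lower). Of 9 peroxidases and hydrogen peroxide channels, 2 were tested, 0 were higher and 1 was lower (median log2 fold change -0.59). The channel gene Aqp1 fell from 263 ± 19.9 to 149 ± 11.9 CPM (log2 fold change -0.83, standard error 0.10, edgeR adjusted p = 2.8e-07), with every RANKL library below every control. The peroxidase genes Lpo, Mpo and Epx had 0 counts in all 8 libraries. Of 28 genes for the removal of superoxide and peroxide, 24 were tested, 5 were higher and 5 lower, with a median log2 fold change of 0.03. Srxn1, which encodes the sulfiredoxin that repairs oxidised peroxiredoxins, rose most of the 5, from 364 ± 49.6 to 733 ± 70.4 CPM (log2 fold change 1.00, standard error 0.10, edgeR adjusted p = 7.7e-09). Gpx1, encoding a glutathione peroxidase, rose from 332 ± 21.3 to 593 ± 63.6 CPM (log2 fold change 0.84, edgeR adjusted p = 8.8e-08). Prdx2 (log2 fold change 0.50, edgeR adjusted p = 0.00014) and the catalase gene Cat (0.46, edgeR adjusted p = 0.00038) rose as well. None of these 4 RANKL groups overlapped the controls. The glutaredoxin gene Glrx fell (log2 fold change -0.57, edgeR adjusted p = 0.00079), as did Prdx6 (-0.30, edgeR adjusted p = 0.016), whose call was lost without RANKL replicate 3 or 4, at -0.29 and -0.27. Gpx2, the glutathione peroxidase of the gut epithelium, did not pass the test (log2 fold change -0.09, edgeR adjusted p = 0.52), nor did the mitochondrial superoxide dismutase gene Sod2 (-0.01, edgeR adjusted p = 0.97). Without RANKL replicate 4 the list had 4 genes higher and 2 lower.

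Of the genes of glutathione synthesis and of the NRF2 response, 13 of 13 were tested, 2 higher and 4 lower. Their median log2 fold change was -0.14. Both subunits of the rate-limiting enzyme of glutathione synthesis passed the test in opposite directions. The catalytic subunit Gclc rose from 137 ± 6.20 to 211 ± 6.64 CPM (log2 fold change 0.63, standard error 0.10, edgeR adjusted p = 1.3e-05), and the modifier subunit Gclm fell from 137 ± 13.9 to 85.2 ± 7.12 CPM (-0.64, standard error 0.12, edgeR adjusted p = 7.4e-05). Exons of Gclm overlap Gm6061 on the same strand and those of Mafg overlap Sirt7, so their counts are less certain. Mafg, a partner of NRF2, rose (log2 fold change 0.55, edgeR adjusted p = 0.00042) and the glutathione synthetase gene Gss fell (-0.47, edgeR adjusted p = 0.00082). Ggt1 (-0.46, edgeR adjusted p = 0.015) and the repressor gene Bach1 (-0.47, edgeR adjusted p = 0.023) fell with overlap between the groups. The call of Ggt1 was lost without RANKL replicate 4 (-0.41) or control replicate 3 (-0.26), and that of Bach1 without RANKL replicate 1 (-0.43), RANKL replicate 4 (-0.38) or control replicate 3 (-0.31). The NRF2 targets Nqo1 (log2 fold change -0.14, edgeR adjusted p = 0.45), Hmox1 (0.18, edgeR adjusted p = 0.65) and Slc7a11 (0.02, edgeR adjusted p = 0.98) did not pass the test.

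NADPH is the electron donor of all these oxidases and of the nitric oxide synthases. Of 19 genes for its supply, 18 were tested, 5 were higher and 6 lower, with a median log2 fold change of -0.09. Among all genes tested, 13.6% were higher and 12.4% lower. Me1, encoding the cytosolic malic enzyme, rose from 58.7 ± 2.48 to 112 ± 18.4 CPM (log2 fold change 0.91, standard error 0.13, edgeR adjusted p = 1.5e-06). Idh2 (0.43, edgeR adjusted p = 0.0024) and the NAD kinase gene Nadk (0.51, edgeR adjusted p = 0.0065) rose as well. The transketolase gene Tkt fell from 2185 ± 287 to 1526 ± 215 CPM (log2 fold change -0.52, edgeR adjusted p = 0.00047), and its exons overlap Mir3076 on the same strand. Aldh1l2, of the mitochondrial folate pathway, fell as well (log2 fold change -1.30, edgeR adjusted p = 0.0011). The transhydrogenase Nnt had a log2 fold change of -1.34 (edgeR adjusted p = 0.00096), which is uncertain because the annotation holds a further Nnt gene that overlaps it. G6pdx, which encodes the entry enzyme of the pentose phosphate pathway, did not pass the test (log2 fold change 0.05, standard error 0.18, edgeR adjusted p = 0.88), nor did Pgd (0.14, edgeR adjusted p = 0.28).

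Around Nos2, 19 genes of the nitric oxide pathway were listed, of which 11 were tested, 3 higher and 2 lower, with a median log2 fold change of 0.17. Nostrin rose from 62.2 ± 7.11 to 152 ± 14.1 CPM (log2 fold change 1.25, standard error 0.12, edgeR adjusted p = 9.0e-10). It encodes a protein that binds the endothelial synthase, the product of Nos3, and moves it from the membrane. Among genes for the synthase cofactor tetrahydrobiopterin, Spr (0.39, edgeR adjusted p = 0.0031) rose and Qdpr (-0.36, edgeR adjusted p = 0.0092) fell. Gch1, the entry enzyme of that synthesis, rose from 11.6 ± 3.62 to 19.0 ± 0.52 CPM (log2 fold change 0.67, edgeR adjusted p = 0.037). DESeq2 did not make this call, and it ended when control replicate 2, control replicate 3 or any RANKL library was left out, with log2 fold changes from 0.45 to 1.00 over all libraries left out. The other synthase genes were low, Nos1 with 10 counts in the controls and 3 in the RANKL libraries and Nos3 with 3 and 7.

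The genes whose pattern was most like that of Cyba were found from the root mean square difference of log2 CPM, centred on each gene's mean over the 8 libraries, among 9929 genes. Serpinb1a, an inhibitor of neutrophil proteases, was nearest at 0.118, followed by Bcl3 (0.141), Inf2 (0.142), Sema4c (0.244) and Anxa5 (0.269), where the median over all genes was 1.43. Serpinb1a was at 215 to 258 CPM in the controls and at 1377 to 1591 CPM in the RANKL libraries, and Bcl3, which encodes a nuclear member of the IκB family, went from 38.4 ± 5.46 to 279 ± 24.3 CPM. The likeness is mostly the shared difference between the conditions, as the fitted log2 fold changes of the 5 genes were 2.47 to 3.31.

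**Figure D4:**
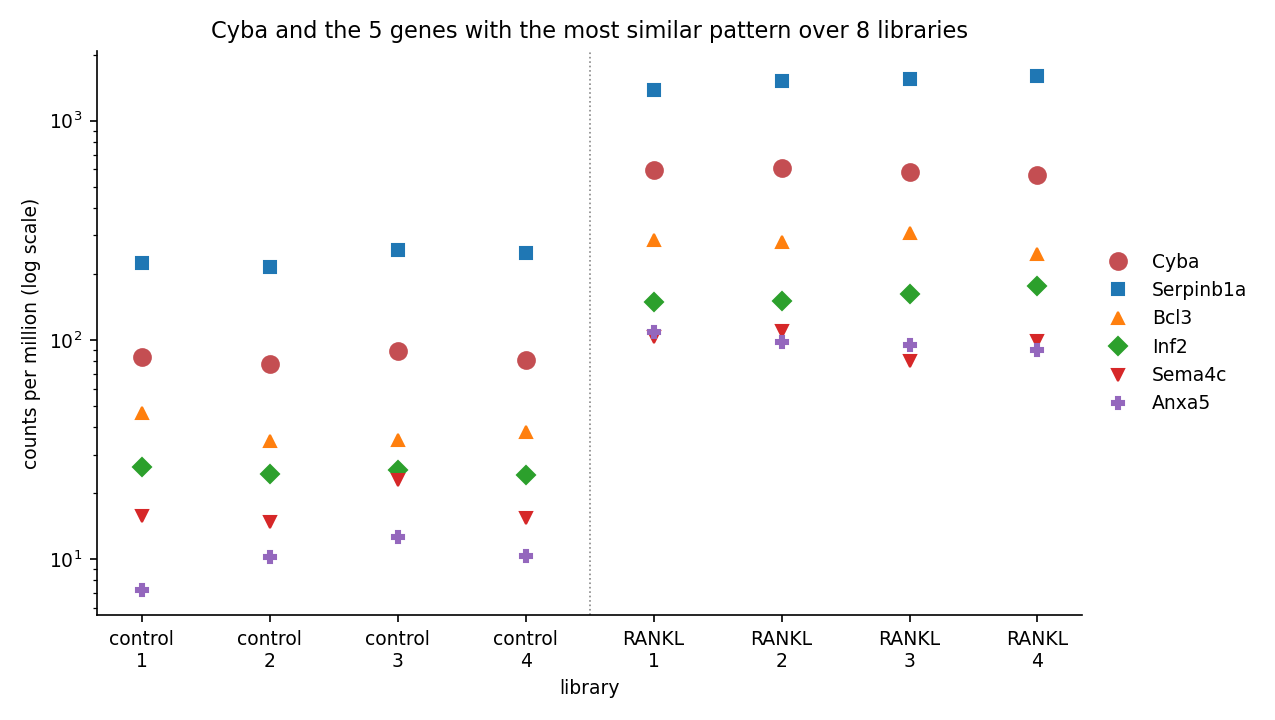
CPM on a log axis of Cyba and of the 5 genes with the most similar pattern, by library, with the dotted line between control and RANKL libraries. Cyba lies at 77.6 to 89.2 CPM in the controls and 564 to 611 CPM with RANKL, and all 5 other genes step up at the same place.

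Since Cyba, Cybb and Rac2 are strongly expressed in blood cells, the markers of phagocytes and other leukocytes were examined beside them. None of 16 markers had enough counts to test. Their summed level was 8.60 to 13.2 CPM in the controls and 9.64 to 24.2 CPM in the RANKL libraries, with overlap, against 564 CPM or more of Cyba. Itgax, Ly6g, Fcgr1 and Tyrobp were at 0 in all 8 libraries and Ptprc had 1 count in all. Csf1r was the most abundant, at 5.29 ± 2.44 and 4.95 ± 2.42 CPM. Cd14 was at 1.04 ± 0.60 CPM in the controls and 4.78 ± 1.17 CPM in the RANKL libraries without overlap, while Itgam (0.43 ± 0.52 and 2.19 ± 1.82 CPM) and Lyz2 (0.36 ± 0.29 and 2.02 ± 2.09 CPM) overlapped. Other markers had lower means with RANKL, also with overlap. Among them were Cd68 (1.85 ± 1.65 and 0.58 ± 0.78 CPM), Fcgr3 (0.39 ± 0.33 and 0 CPM) and Adgre1 (0.13 ± 0.15 and 0 CPM). Of 12 mesenchymal and endothelial markers, 3 (Dcn, Cdh5 and Kdr) were at 0, the summed level was 5.48 to 24.1 and 21.3 to 27.6 CPM, and 1 was tested, Pdgfrb, at 2.16 to 5.37 and 17.2 to 23.5 CPM, which met the filter only through the RANKL libraries. Markers of M cells, the epithelial cells over lymphoid follicles, moved with Cyba. Of 8 such genes, 7 were tested and all 7 were higher, 3 of which (Spib, Tnfaip2 and Sox8) met the filter only through the RANKL libraries, with a summed level of 134 to 180 CPM in control and 2120 to 2434 CPM in RANKL libraries, most of the latter Spib, while Gp2, a marker of mature M cells, was at 0. Anxa5, among the genes most like Cyba, is also in that list. The summed level of 8 epithelial markers was 7047 to 8138 and 6706 to 7331 CPM, and 3 of them (Krt18, Krt19 and Cldn7) were lower and 0 higher. Of 5 stem cell markers, 3 (Lgr5, Smoc2 and Axin2) were lower and Ascl2 was higher. Of the 6 markers of Paneth cells and the 6 of goblet cells 1 each was lower. Higher were 1 of 8 enterocyte and 3 of 6 enteroendocrine markers. The shares over all genes tested were 13.6% higher and 12.4% lower. The part of these markers in the levels of the oxidase genes was not tested.

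**Figure D5:**
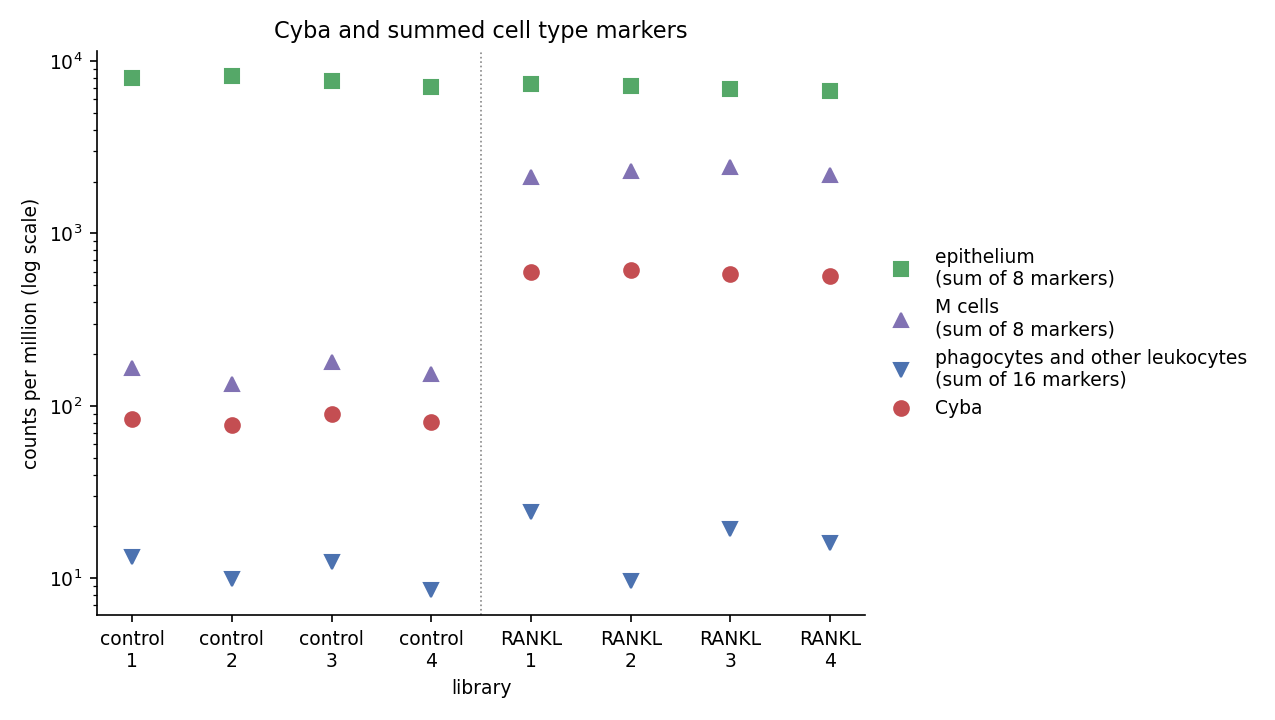
CPM on a log axis, by library, of Cyba and of the summed markers of epithelium (8 genes), M cells (8) and phagocytes and other leukocytes (16). Cyba and the M cell markers are both higher in all 4 RANKL libraries, the epithelial sum stays between 6706 and 8138 CPM, and the leukocyte sum stays at or below 24.2 CPM.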

How the data were processed

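The authors trimmed the QuantSeq reads, dropped those of abundant sequences, used STAR to align what remained to GRCm38 and featureCounts to count it per Ensembl gene on the sense strand. The deposited values are raw counts per gene without normalization, and all rows name a gene. The analysis used edgeR 4.0.16 (R 4.3.3) on all genes, with TMM scaling, its filter on low counts, its quasi-likelihood test between RANKL and control libraries and Benjamini-Hochberg adjustment over the 9971 genes tested (threshold 0.05). The standard error is the log2 fold change divided by the square root of F. Fitted folds carry edgeR's default prior count, and the log2 CPM for the likeness to Cyba carry a prior count of 2. The total counts per library were 583663 to 7807298, so that low genes are measured least well in control replicate 4 and RANKL replicate 1. Coordinates are from GENCODE M21 and promoters from RefSeq. The members and the gene lists, written by hand, were chosen with earlier results of these data known. The rule for named genes took the members, the genes of each list past the threshold (at most 6, by adjusted p), and the 5 tested genes most like Cyba at a mean of at least 5 CPM. Other list genes (Cybc1, Ncf1, Ncf4, Duox1, Duoxa1, Nox3, Lpo, Mpo, Epx, Gpx2, Sod2, Nqo1, Hmox1, Slc7a11, G6pdx, Pgd, Nos1, Nos3) and Mvd were named after their values were seen. Some list genes that the rule takes are counted but not reported here by name. Alternatives were DESeq2 1.42.0 (size factors, Wald test), library totals, limma-voom (limma 3.58.1), other filters, the replicate number as a block, libraries left out and an adjusted p of 0.01. Leaving libraries out of the pooled ratios and of Nox1 per Duox2 was added after the data were seen. The steps were tested on simulated data.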

Additional observations from a re-analysis of the deposited data

Results flagged for a closer look

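Among 76 groups of 4 libraries of the named genes, 2 held a library that lay apart from the other 3 by Dixon's criterion, and chance alone flags about 1 in 20 groups, which would be 3.8. Vav2 was at 36.11 CPM in control replicate 4, where the next control was at 21.52 CPM. Gch1 was at 18.25 CPM in RANKL replicate 3, where the next RANKL library was at 19.22 CPM. None of the groups concerned is of one of the 10 oxidase genes.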

How the results depend on the processing

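Of 503 refits of the named list genes, 448 kept their direction and their side of the threshold, 55 lost the call and 0 reversed. With at least 10 counts in every library, 2 oxidase genes past the threshold were left (Cyba and Noxo1), because Nox1, Noxa1 and Duox2 were no longer tested, and 1 of the further subunits and 1 of the RAC regulators passed. With no filter on low counts, 6 oxidase genes (4 higher, with Nos2 added) and 5 further subunits passed. Nothing is read from the counts of oxidase genes, which were chosen on this contrast. Of the RAC regulators (3 in the report), 0 passed under DESeq2, 1 without the 2 shallowest libraries and 0 at an adjusted p of 0.01. At that threshold 1636 genes passed in all, 5 genes of superoxide and peroxide removal and 7 of NADPH supply.

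With 1 library left out, the genes past the threshold numbered 1853 (without RANKL replicate 4) to 2601 in all, 5 in every case among the oxidase genes, 2 to 4 of the further subunits, 0 to 4 of the RAC regulators, 1 of the peroxidases and channels, 6 to 12 of superoxide and peroxide removal, 4 to 6 of glutathione synthesis, 8 to 11 of NADPH supply and 4 to 6 of the nitric oxide pathway. The ratio of Cyba to its catalytic partners was 6.74 to 10.2 in control and 17.2 to 19.7 in RANKL libraries. The cause of the other changes was not tested.

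The deviations of same-numbered libraries from the mean of their condition correlated at -0.00724, -0.0334, 0.101 and 0.035. Those of differently numbered libraries correlated at -0.134 to 0.086. Such values cannot decide whether the replicate numbers pair the libraries, because counting error also draws a correlation towards 0. With the replicate number as a block, 2610 genes passed, 2407 of them among the 2587 without it, and 5 oxidase genes, 2 further subunits, 0 RAC regulators, 1 peroxidase or channel gene, 9 of superoxide and peroxide removal, 6 of glutathione synthesis, 11 of NADPH supply and 5 of the nitric oxide pathway. Depth limits Cybb, Nox4, Duoxa2 and Nos2, where a count of 0 allows 0.185 CPM over the controls and 0.52 CPM over the RANKL libraries.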
